A study of Mus musculus with 5 samples.

Results

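The 43 TRAJ segments, the joining segments of the T cell receptor alpha chain, that occurred in productive alpha clonotypes of CD4 single positive (SP) thymocytes were compared between 3 wild type (WT) and 2 Tet2/3 double knockout (DKO) libraries. The segments were found by taking the first J hit of each row of the 5 deposited alpha clonotype tables. Of the 47 J segments in any row, 45 were TRAJ segments and 2 were TRDJ segments, and TRAJ61 and TRAJ25 occurred in non-productive rows alone. A clonotype is one row of a table, that is, one CDR3 nucleotide sequence with its V and J assignment, and it was taken as productive where its translated CDR3 held no frameshift or stop mark.

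All mice were on the C57BL/6J background and were 21 to 30 days old. The DKO genotype, Tet2-/-Tet3flx/flxCD4cre, combines germline loss of Tet2 with deletion of floxed Tet3 by a Cre driven by Cd4 regulatory sequence, which is active from the double positive (DP) stage on. The controls are labelled wild type and no group with the Cre alone was analysed here, so the Cre and the deletions cannot be told apart. The cells were sorted as live CD4+ CD24low TCRb+ thymocytes that lacked CD8 and did not bind the αGalCer-loaded CD1d tetramer. RNA of the sorted cells was sequenced in bulk, and the clonotypes were read from the same libraries, so that fewer cells with a chain and less of its RNA per cell cannot be told apart.

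The alpha chain locus rearranges in DP thymocytes. The first joins use the J segments nearest to the V segments, which carry the high TRAJ numbers, and the V segments nearest to the J array. Because the joined pair can be deleted by a later join of a V segment farther upstream to a J segment farther downstream, the same allele can rearrange again and again, stepping towards the constant region gene Trac, until positive selection switches off the recombinase or the cell dies. The position of the J segment in a mature T cell is therefore widely read as a record of how far rearrangement had gone. TRAJ18 also forms the invariant chain of iNKT cells with TRAV11, and TRAJ33 that of MAIT cells with TRAV1.

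On mm10 (GENCODE M21) the 60 annotated Traj segments spanned 63.8 kb on the plus strand of chromosome 14, from Traj61 at chr14:54155005-54155076 to Traj1 at chr14:54218814-54218842, upstream of Trac at chr14:54220521-54224206. The 43 segments in use lay 63.2 to 2.62 kb from Trac and were 57 to 66 bases long. Each is a short coding exon that joins to a V segment at its 5′ end and is spliced to Trac at its 3′ end. Shown here are the segments with the largest gains (TRAJ15, TRAJ12, TRAJ9 and TRAJ6) and the largest losses (TRAJ40, TRAJ37, TRAJ33 and TRAJ49) of mean share in Tet2/3 DKO, with TRAJ44, which had the largest fold change of the segments called. They are the germline sequences of GENCODE M21, and the capitals mark the F/W-G-X-G motif that closes the CDR3, searched in the reading frame of the coding strand as TTTGGNNNNGGN, TTCGGNNNNGGN or TGGGGNNNNGGN.
TRAJ15: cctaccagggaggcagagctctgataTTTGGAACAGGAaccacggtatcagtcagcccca
TRAJ12: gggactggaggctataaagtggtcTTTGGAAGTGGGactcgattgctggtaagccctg
TRAJ9: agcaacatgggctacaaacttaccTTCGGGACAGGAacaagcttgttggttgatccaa
TRAJ6: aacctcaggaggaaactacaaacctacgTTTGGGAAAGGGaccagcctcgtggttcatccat
TRAJ40: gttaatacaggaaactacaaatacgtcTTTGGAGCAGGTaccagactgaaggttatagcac
TRAJ37: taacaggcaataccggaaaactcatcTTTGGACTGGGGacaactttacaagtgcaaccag
TRAJ33: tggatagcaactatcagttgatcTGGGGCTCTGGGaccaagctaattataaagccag
TRAJ49: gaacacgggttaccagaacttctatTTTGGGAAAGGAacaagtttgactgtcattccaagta
TRAJ44: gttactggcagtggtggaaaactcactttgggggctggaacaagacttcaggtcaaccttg
The motif was found in 41 of the 43 segments in use, and TRAJ44 and TRAJ7 had no match to these letters. Among all 60 annotated segments 43 held it (71.7%). Of the 17 segments without a productive clonotype, 2 held it (11.8%), namely TRAJ54 and TRAJ25, and 9 of the 17 were annotated as pseudogenes.

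The 5 tables held 4089 to 7916 alpha clonotypes per library, of which 6845, 5797 and 6948 were productive in WT replicates 1 to 3 and 5648 and 3548 in Tet2/3 DKO replicates 1 and 2. They rested on 9761, 7919, 9994, 8694 and 5681 reads in the same order, and 69.4% to 76.8% of productive clonotypes were seen in 1 read. Shares were taken over all productive clonotypes of a library, including the 0.311% to 0.584% that used TRDJ segments. A segment with 0 clonotypes could have had a share of up to 0.0432% to 0.0846% (3 clonotypes), and reads carried no molecular identifiers, so that intervals and these limits cover counting error only. Gene counts summed to between 17607089 and 27267031 per library. Tet3 was at 43.8 to 52.5 CPM (counts scaled to a common library total after TMM normalisation) in WT and at 19.98 and 13.1 CPM in Tet2/3 DKO. Tet2 gene counts, 52.4 to 57.8 CPM in WT and 91.5 and 58.6 in Tet2/3 DKO, cover the whole gene, and since the deleted part is not given they do not check the genotype.

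The library labelled Tet2/3 DKO replicate 1, a male by its label, held 744 Xist counts and 0 to 5 counts on each of the Y-linked genes Eif2s3y, Ddx3y, Uty and Kdm5d, whereas WT replicate 1, labelled female, held 0 Xist counts and 3890 of Eif2s3y. The text of the study describes all mice of this experiment as male, which the counts of WT replicate 1 fit and those of Tet2/3 DKO replicate 1 do not. The mean TRAJ numbers, window shares, non-productive rows, V groups and calls below were therefore also computed with each of these libraries left out, which was not done for the counts of V families and of segments whose genotypes did not overlap. Of 5 CD4 T cell markers, Cd4 and Cd5 were called lower, and Cd3e, Trac and Trbc2 were not called. Cd5 was at 886 to 941 CPM in WT and at 404 and 344 CPM in Tet2/3 DKO. Cd4 was at 572 to 752 CPM in WT and at 389 and 433 CPM in Tet2/3 DKO, and Cd8b1 was also called lower, at 65.9 to 71.7 CPM against 28.6 and 27.1 CPM. Cd8a stood the other way, at 2.71, 2.91 and 5.39 CPM in WT and at 5.77 and 8.67 CPM in Tet2/3 DKO, and was not called (edgeR adjusted p = 0.128). Of 6 DP markers, the recombinase genes Rag1 and Rag2 had at most 1 count in any library and Ptcra, the surrogate alpha chain, at most 3. The DP list summed to 159 to 182 CPM in WT and to 116 and 156 CPM in Tet2/3 DKO, most of it Cd1d1 (101.3 to 160.8 CPM over the libraries). Among markers of other cells, Tcrg-C1, Tcrg-C2 and Zbtb16 were called higher in Tet2/3 DKO, and no B cell, myeloid, erythroid or thymic epithelial gene was called. The 4 γδ T cell genes summed to 24.2 to 26.2 CPM in WT and to 183 and 282 CPM in Tet2/3 DKO, where 2 of 4 (Tcrg-C1 and Tcrg-C2) passed the test, while Trdc did not (11.7 to 16.7 against 18.3 and 15.3 CPM). The last of the list, Sox13, had the opposite sign, at 1.08, 1.05 and 0.947 CPM in WT and 0.238 and 0.224 CPM in Tet2/3 DKO (edgeR adjusted p = 0.0361, above the threshold of 0.01). The iNKT factor Zbtb16 was at 0.548 to 1.24 CPM in WT and at 11.97 and 14.2 CPM in Tet2/3 DKO. B cell markers summed to 2.01 to 3.24 CPM in WT and to 1.76 and 2.85 CPM in Tet2/3 DKO. Myeloid markers summed to 6.12 to 11.7 CPM in WT and to 19.8 and 44.2 CPM in Tet2/3 DKO. Of these, Lyz2 was at 10.8, 10.4 and 5.83 against 18.6 and 42.5 CPM (edgeR adjusted p = 0.0142). Csf1r was at 0.271, 0.0843 and 0.0364 against 0.715 and 1.06 CPM (edgeR adjusted p = 0.0294). Both stayed above the threshold of 0.01, Itgam overlapped between genotypes and Cd14 was not tested. Thymic epithelial markers summed to 9.75 to 11.4 CPM in WT and to 10.5 and 33.8 CPM in Tet2/3 DKO. Nearly all of the epithelial sum was Epcam (8.24 to 10.8 against 10.4 and 33.8 CPM), whereas Psmb11 was at 1.51, 0.927 and 0.656 CPM in WT and at 0.0477 and 0 CPM in Tet2/3 DKO (edgeR adjusted p = 0.0189). The part of these transcripts in the results below was not tested.

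The first question was whether the whole array was read from the same positions in both genotypes. In Tet2/3 DKO, productive clonotypes sat closer to Trac. Their mean TRAJ number was 29.1, 29.8 and 29.3 in WT replicates 1 to 3 and 26.6 and 27.3 in Tet2/3 DKO replicates 1 and 2, so both DKO libraries lay below every WT library. The group means were 29.4 ± 0.35 (SD, n = 3) and 26.9 ± 0.50 (SD, n = 2), a difference of -2.48 TRAJ numbers (exact permutation test, two-sided, p = 0.1, the smallest that 3 against 2 libraries allow). The counting error of each library's mean was 0.169 to 0.234. In distance, the mean clonotype lay 31.3 ± 0.36 kb (SD, n = 3) from Trac in WT and 28.7 ± 0.51 kb (SD, n = 2) in Tet2/3 DKO, and the median TRAJ number was 30, 31 and 30 against 26 and 26. Without Tet2/3 DKO replicate 1 the difference was -2.12, and without WT replicate 1 it was -2.62.

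The array was next divided into a V-proximal window (TRAJ number 41 and above, 13 segments in use), a central window (21 to 40, 17 segments) and a distal window near Trac (20 and below, 13 segments). Clonotypes moved out of the first and into the last. The V-proximal share was 20.9% (95% Wilson interval 19.9% to 21.8%), 21.8% (20.8% to 22.9%) and 21.1% (20.2% to 22.1%) in WT, and 17.0% (16.1% to 18.0%) and 17.2% (16.0% to 18.5%) in Tet2/3 DKO. The distal share was 27.0% (26.0% to 28.1%), 25.4% (24.3% to 26.6%) and 26.2% (25.2% to 27.3%) in WT against 33.8% (32.6% to 35.1%) and 31.3% (29.8% to 32.9%) in Tet2/3 DKO. In both end windows the intervals of the 2 genotypes were apart, but they cover counting error only and not the spread between mice. The group difference was -4.11 percentage points for the V-proximal, -2.40 for the central and 6.37 for the distal window, each with an exact permutation p of 0.1 (two-sided, 0.1 after adjustment over the 3 windows). The central shares, 51.7%, 52.5% and 52.1% in WT and 48.5% and 50.8% in Tet2/3 DKO, were the closest, and without Tet2/3 DKO replicate 1 the central difference was -1.26 points.

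**Figure D1:**
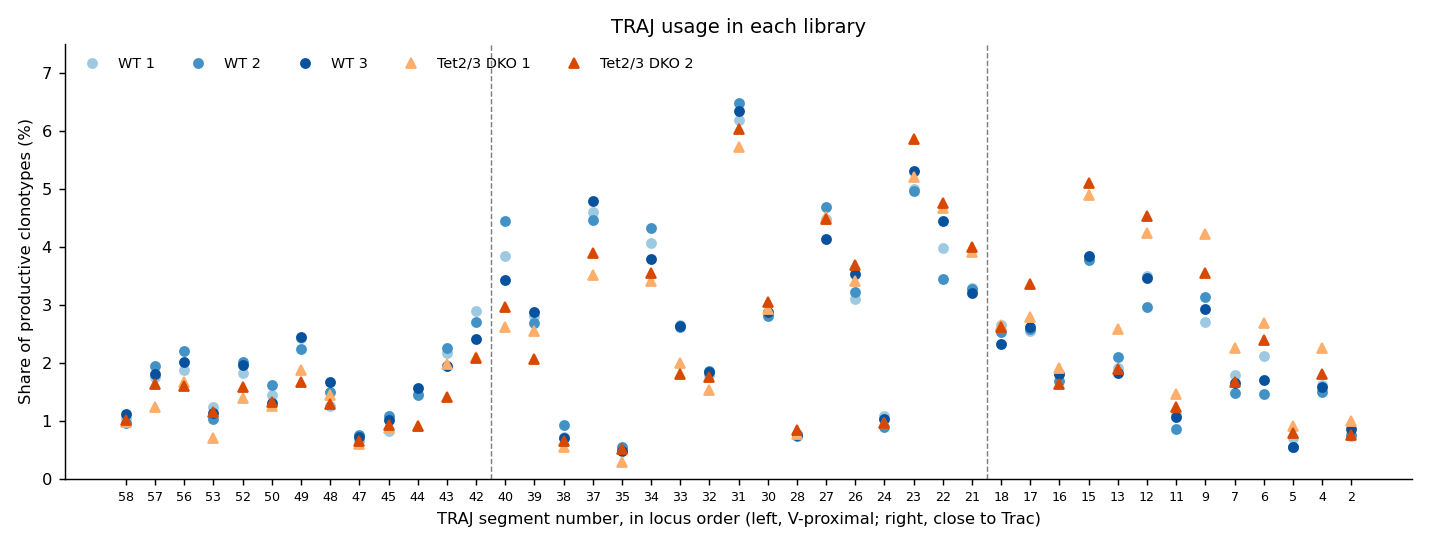
Share of productive clonotypes (y axis, %) of each of the 43 TRAJ segments in use (x axis, in locus order from V-proximal on the left to Trac on the right). Circles are the 3 WT and triangles the 2 Tet2/3 DKO libraries, and dashed lines bound the windows; the triangles lie mostly below the circles on the left and above them on the right.

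By the sign of the difference in mean share, the change had its turning point between TRAJ31 and TRAJ30, apart from TRAJ24. All 22 segments from TRAJ58 to TRAJ31 had a lower mean share in Tet2/3 DKO than in WT, and 20 of the 21 segments from TRAJ30 to TRAJ2 had a higher one, TRAJ24 being the exception. Some ratios of mean shares were nearly even, at 1.001 for TRAJ16 and 1.01 for TRAJ27. In Tet2/3 DKO replicate 2 alone, TRAJ24, TRAJ16, TRAJ13 and TRAJ2 lay below the WT mean and TRAJ53 lay above it. Summed from the V-proximal end, the cumulative share of TRAJ clonotypes reached 48.2%, 50.4% and 48.2% at TRAJ31 in WT and 39.4% and 40.7% in Tet2/3 DKO, and the gap of 8.89 percentage points there was the widest of the array. Across the 43 segments, the log2 ratio of mean shares and the TRAJ number had a Spearman correlation of -0.82, which is given as a description, since neighbouring segments share libraries. With each DKO library set alone against the WT mean the value was -0.84 and -0.70, and with each WT library against the mean of the other WT libraries it was -0.38, 0.42 and -0.07. The ratio of mean shares had a Spearman correlation of -0.20 with the length of the segment, 0.34 with its GC content and 0.05 with its mean WT share.

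**Figure D2:**
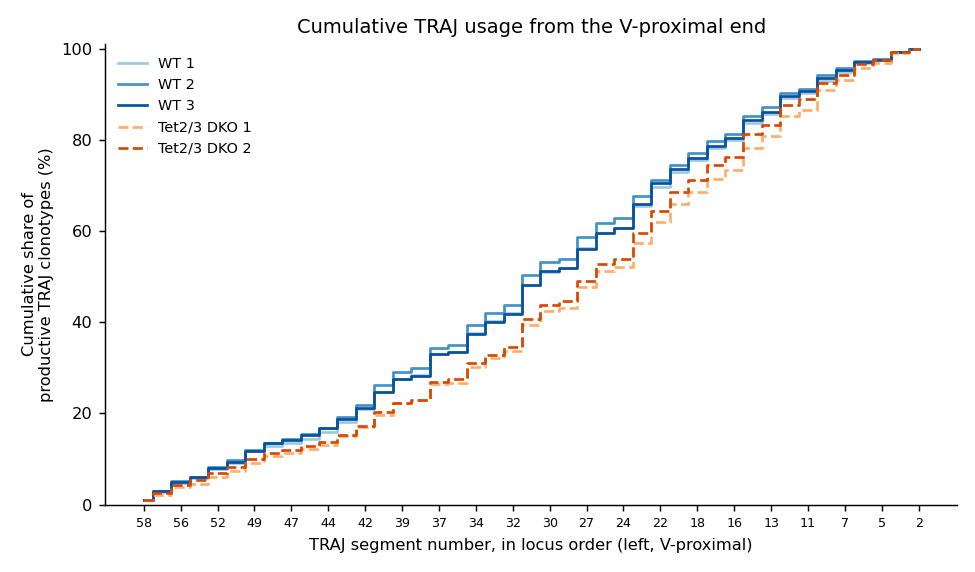
Cumulative share of productive TRAJ clonotypes (y axis, %) summed from the V-proximal end (x axis, TRAJ number in locus order). Solid lines are WT and dashed lines Tet2/3 DKO libraries, and the dashed lines run below the solid ones with the widest gap, 8.89 percentage points between the group means, at TRAJ31.

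Segment by segment, 8 of 43 were called higher and 8 lower in Tet2/3 DKO (18.6% each, 37.2% in all, of the segments tested; edgeR quasi-likelihood test, adjusted p under 0.05). The calls higher were TRAJ21 and 7 segments between TRAJ15 and TRAJ4, and the calls lower all had numbers from 33 to 57. The number of calls changed with the spread allowed between libraries and with the tool. edgeR's moderated variance ranged from 0.473 to 1.41 times the counting variance, and raising it to at least the counting variance left 12 calls, all among the 16. DESeq2, whose fitted dispersions were 0.0056 to 0.0285, called 0 segments at the same threshold, with 12 segments at an unadjusted p under 0.05 and a smallest adjusted p of 0.0522 (over the other settings on rows that include the productive clonotypes, the smallest adjusted p ranged from 5.45e-06 to 0.0327). Without Tet2/3 DKO replicate 1 there were 7 calls, 5 of them among the 16, and without WT replicate 1 there were 14.

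Counted without a model, both DKO libraries lay above every WT library for 12 segments (27.9%) and below for 14 (32.6%). None of the 12 was V-proximal and 8 were distal, whereas 6 of the 14 were V-proximal and none was distal. The median log2 ratio of mean shares was -0.31 in the V-proximal, -0.11 in the central and 0.37 in the distal window.

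**Figure D3:**
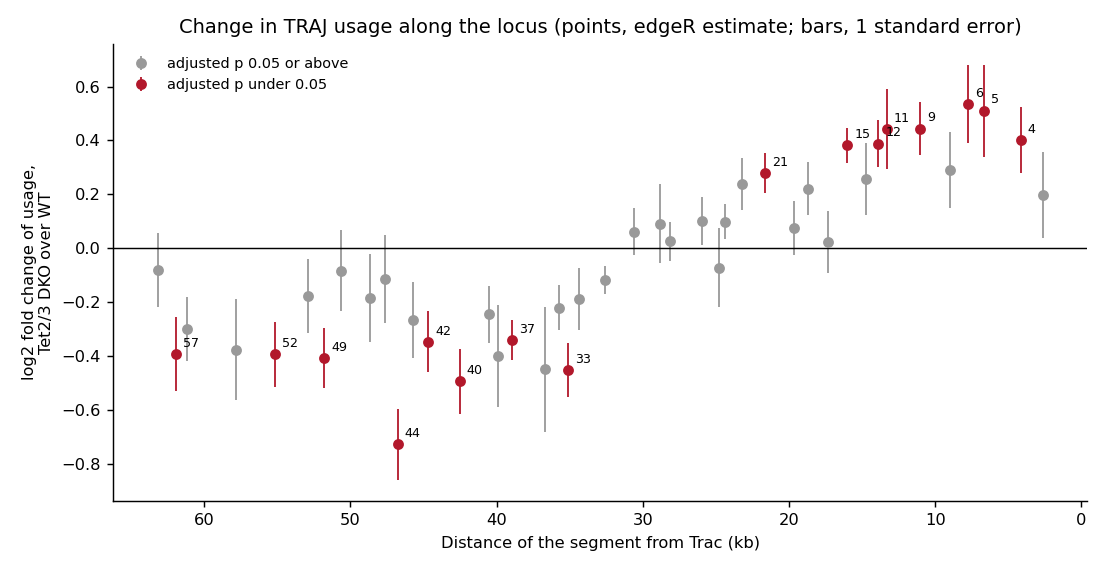
log2 fold change of usage in Tet2/3 DKO over WT (y axis, edgeR estimate with 1 standard error) of each segment by its distance from Trac (x axis, kb). Red points passed an adjusted p of 0.05 and carry their TRAJ number; the 8 called higher lie to the right and the 8 called lower to the left of the centre.

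TRAJ15 took the largest gain. Its share was 3.81%, 3.78% and 3.84% in WT and 4.89% and 5.10% in Tet2/3 DKO, a log2 fold change of 0.38 ± 0.06 (SE; edgeR adjusted p = 0.00336), and it moved from the 8th to the 3rd most used segment. TRAJ12 stood at 3.49%, 2.97% and 3.45% in WT against 4.23% and 4.54%, and TRAJ9 at 2.703%, 3.14% and 2.92% against 4.21% and 3.55%. In these 3 segments the genotypes did not overlap. Their neighbours towards Trac behaved alike in direction. TRAJ6 rose from 2.12%, 1.47% and 1.70% to 2.69% and 2.40%, with a log2 fold change of 0.54 ± 0.14 (SE; edgeR adjusted p = 0.0145), the largest fold among segments called higher. TRAJ4 was at 1.62%, 1.501% and 1.58% in WT and at 2.25% and 1.80% in Tet2/3 DKO. Farther upstream, TRAJ21, the highest number called higher, rose from 3.29%, 3.28% and 3.20% to 3.91% and 4.00%.

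TRAJ40 took the largest loss in share. It fell from 3.84%, 4.45% and 3.43% in WT to 2.62% and 2.96% in Tet2/3 DKO, and from the 7th to the 14th most used segment. TRAJ37, the 3rd most used segment in WT, fell from 4.60%, 4.47% and 4.79% to 3.51% and 3.89%, with a log2 fold change of -0.34 ± 0.07 (SE; edgeR adjusted p = 0.00643). The DKO libraries lay below the WT range for both TRAJ37 and TRAJ33. For TRAJ33 the WT shares lay closer together than the counting error in their Wilson intervals. That closeness therefore does not measure the spread between mice. The TRAJ33 intervals of the genotypes overlapped, at 2.29% to 3.05% in WT replicate 1 and 1.67% to 2.40% in Tet2/3 DKO replicate 1. TRAJ33, the segment of the MAIT chain, was at 2.64%, 2.62% and 2.63% in WT and at 2.001% and 1.80% in Tet2/3 DKO. TRAJ44 had the largest fold, from 1.46%, 1.45% and 1.57% to 0.903% and 0.902%, a log2 fold change of -0.73 ± 0.13 (SE; edgeR adjusted p = 0.00348). In the V-proximal window TRAJ49 was at 2.43%, 2.24% and 2.45% against 1.88% and 1.66%, and TRAJ52 at 1.83%, 2.02% and 1.96% against 1.40% and 1.58%.

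The 6 most used in WT, TRAJ31, TRAJ23, TRAJ37, TRAJ27, TRAJ34 and TRAJ22, together held 28.3% to 28.8% of WT clonotypes and 27.0% and 28.6% of those in Tet2/3 DKO. TRAJ31 and TRAJ23 ranked 1st and 2nd in both genotypes, while TRAJ37 went from 3rd to 9th and TRAJ34 from 5th to 11th. TRAJ31 was at 6.19%, 6.49% and 6.35% in WT and 5.72% and 6.03% in Tet2/3 DKO, which did not overlap but did not pass the test (edgeR adjusted p = 0.0851). TRAJ23 held 5.00%, 4.97% and 5.31% against 5.21% and 5.86%. TRAJ27 held 4.49%, 4.69% and 4.13% against 4.51% and 4.48%. Neither of these 2 was called, and in both the libraries of the genotypes overlapped. TRAJ34, upstream of the turning point, held 4.06%, 4.33% and 3.79% against 3.42% and 3.55% (edgeR adjusted p = 0.0549). TRAJ22, downstream of it, held 3.99%, 3.45% and 4.45% against 4.67% and 4.76% (edgeR adjusted p = 0.0679). With non-productive rows included, both passed, with edgeR adjusted p-values of 0.0341 for TRAJ34 and 0.00431 for TRAJ22. With DESeq2, which called 0 segments on productive rows, neither passed. Over the whole array the mean WT share ranged 12.5-fold, from 0.508% for TRAJ35 to 6.34% for TRAJ31.

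The outermost segments in use differed little. TRAJ58, the first segment in use, held 1.05%, 0.966% and 1.11% in WT and 0.974% and 1.01% in Tet2/3 DKO. TRAJ2, the last, held 0.745%, 0.759% and 0.849% against 0.992% and 0.761%. Neither passed the test, and both overlapped between genotypes, whereas the neighbouring TRAJ57 was called lower and TRAJ4 higher. Within the V-proximal window the mean TRAJ number was 49.1, 49.2 and 49.3 in WT and 49.1 and 49.6 in Tet2/3 DKO, and within the distal window 11.7, 11.9 and 11.8 against 11.4 and 11.8, with overlapping genotypes in both. Without Tet2/3 DKO replicate 1 the difference within the V-proximal window was 0.39, with the remaining DKO library above every WT library. Inside the central window, which holds the turning point, it was 30.1, 30.4 and 29.98 against 29.3 and 29.2 (exact permutation test, two-sided, p = 0.1, and 0.3 after adjustment over the 3 windows).

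TRAJ18, the iNKT segment, held 2.66%, 2.54% and 2.33% of clonotypes in WT and 2.66% and 2.62% in Tet2/3 DKO (log2 fold change 0.08 ± 0.10, SE; edgeR adjusted p = 0.567). Of 93 to 182 productive TRAJ18 clonotypes per library, 3, 2 and 2 in WT and 3 and 1 in Tet2/3 DKO were joined to TRAV11. The pair was therefore rare in all 5 libraries, which were gated on tetramer negative cells. TRAV1 joined to TRAJ33, the MAIT pair, was found 2, 2 and 1 times in WT and 0 times in both DKO libraries, where 0 of 113 and 0 of 64 TRAJ33 clonotypes allow a share of up to 2.65% and 4.69%.

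Non-productive rows show joins whose protein was not made, and they come from the same cells. Their mean TRAJ number was 29.6, 29.3 and 29.1 in WT, over 983, 829 and 962 TRAJ rows, and 26.5 and 28.0 in Tet2/3 DKO, over 810 and 534 rows (difference -2.07; exact permutation test, two-sided, p = 0.1). The distal share of non-productive rows was 24.2%, 25.8% and 27.6% in WT and 32.9% and 30.1% in Tet2/3 DKO. Both measures thus ran in the direction of the productive rows and did not overlap between genotypes. The counting error of each library's mean was 0.430 to 0.605. The V-proximal share was 20.2%, 22.0% and 21.7% in WT and 15.2% and 19.8% in Tet2/3 DKO, where replicate 2 came close to WT replicate 1. The central share overlapped between genotypes (exact permutation test, two-sided, p = 0.3). With these smaller numbers edgeR called 0 of 43 segments, DESeq2 was not run on these rows, and 3 segments had an unadjusted p under 0.05. Of the 16 segments called in productive rows, 12 had a log2 fold change of the same sign in non-productive rows, as did 31 of all 43 segments, a like share. Without Tet2/3 DKO replicate 1 the difference in mean TRAJ number of non-productive rows was -1.33 and that in distal share 4.24 percentage points, and without WT replicate 1 they were -1.94 and 4.82.

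The J position was also read together with the V segment. Clonotypes with the V segments nearest to the J array, TRAV17 to TRAV21, used V-proximal J segments in both genotypes, with a mean TRAJ number of 47.4, 47.8 and 47.7 in WT and 47.3 and 49.4 in Tet2/3 DKO. They made up 2.74%, 3.06% and 3.00% of TRAJ clonotypes in WT against 2.03% and 2.69%, which did not overlap (exact permutation test, two-sided, p = 0.1, and 0.24 after adjustment over 12 comparisons). Those with TRAV1 or TRAV2 at the far end of the V array, 20 to 63 clonotypes per library, had mean TRAJ numbers of 23.7, 26.1 and 24.4 in WT and 24.4 and 22.3 in Tet2/3 DKO. In neither group did the mean TRAJ numbers of the genotypes separate over the 5 libraries, and the few clonotypes leave wide errors. Without Tet2/3 DKO replicate 1 the difference in the TRAV17 to TRAV21 share shrank from -0.572 to -0.241 percentage points. The difference in mean TRAJ number was then 1.80 for TRAV17 to TRAV21 and -2.41 for TRAV1 and TRAV2, and the remaining DKO library lay outside the WT range in each. The remaining 96.2% to 97.0% of clonotypes had means of 28.7, 29.2 and 28.8 against 26.2 and 26.7 (difference -2.46; exact permutation test, two-sided, p = 0.1, and 0.24 after adjustment over 12 comparisons). The difference between these V groups was not tested.

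Most V families moved alike. Of the 16 families with at least 20 clonotypes in every library, 14 had a lower mean TRAJ number in Tet2/3 DKO, in 10 of them with both DKO libraries below every WT library, and TRAV21 had both above. Setting every library to the mean WT mix of 21 V families gave means of 29.2, 29.7 and 29.2 in WT and 26.9 and 27.4 in Tet2/3 DKO, a difference of -2.28 (exact permutation test, two-sided, p = 0.1). Mean CDR3 length overlapped between the genotypes. Mean lengths were 40.5, 40.5 and 40.5 bases in WT and 40.4 and 40.5 bases in Tet2/3 DKO (exact permutation test, two-sided, p = 0.6, and 0.7 after adjustment over 4 comparisons).

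Weighted by reads, the picture differed between the DKO libraries. The mean TRAJ number of productive reads was 28.7, 29.6 and 29.0 in WT and 25.7 and 28.6 in Tet2/3 DKO (difference -1.95; exact permutation test, two-sided, p = 0.1). The second DKO library thus lay just below the lowest WT library, and without Tet2/3 DKO replicate 1 the difference was -0.49, against -3.41 without replicate 2. With non-productive rows included, the genotypes overlapped (difference -1.83; exact permutation test, two-sided, p = 0.2). The V-proximal share of reads, 19.6%, 20.8% and 20.4% in WT against 15.7% and 21.6%, no longer separated the genotypes, nor did the distal share, 27.8%, 25.4% and 26.9% against 35.7% and 27.2%. Fewer segments separated upwards by reads, 4 with both DKO libraries above every WT library (9.30%) and 17 below (39.5%).

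**Figure D4:**
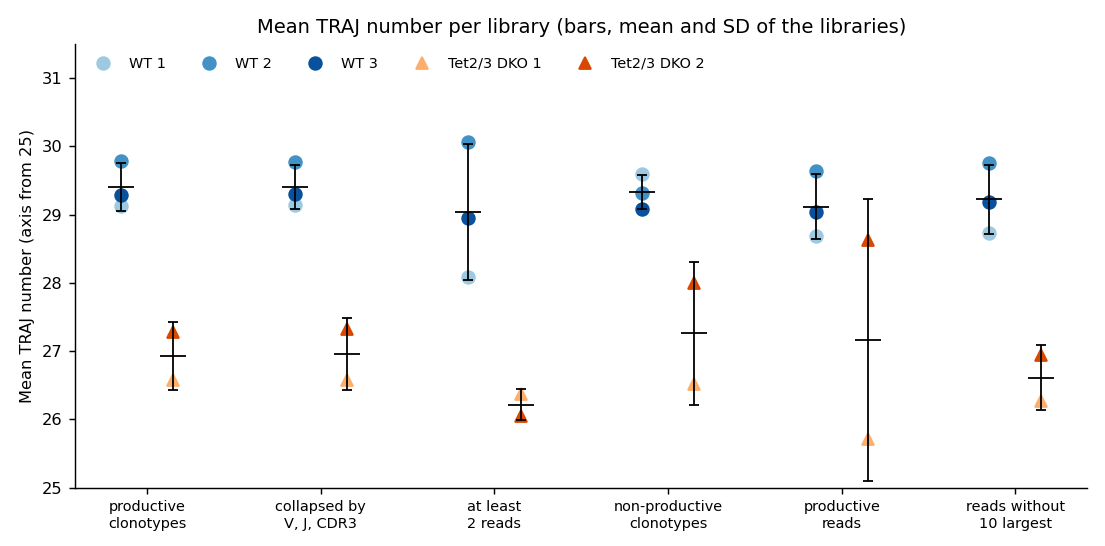
Mean TRAJ number (y axis, starting at 25) of each library under 6 ways of counting (x axis). Circles are WT and triangles Tet2/3 DKO libraries, with the mean and SD of each group; the triangles lie below the circles throughout, and replicate 2 comes close to WT (28.6 against 28.7) only when all reads are counted.

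The readouts came together when the largest clonotypes were left out. The 10 largest clonotypes held 1.09% to 1.33% of productive reads in WT, 5.66% in Tet2/3 DKO replicate 1 and 17.4% in replicate 2, and without them the mean TRAJ numbers of reads were 28.7, 29.7 and 29.2 in WT and 26.3 and 26.9 in Tet2/3 DKO. No segment of a WT library had a share of reads more than 0.687 percentage points above its share of clonotypes, reached by TRAJ31 in replicate 2. The largest excess within replicate 1 was that of TRAJ15 (0.521) and within replicate 3 that of TRAJ22 (0.386). In Tet2/3 DKO replicate 1, TRAJ2 held 0.992% of clonotypes and 3.62% of reads. In replicate 2, TRAJ24 held 0.958% of clonotypes and 6.53% of reads, TRAJ50 1.32% and 5.49%, and TRAJ53 1.16% and 4.31% (TRAJ50 and TRAJ53 were chosen after their values were seen). In the other libraries the shares of these 4 segments by reads and by clonotypes differed by at most 0.215 percentage points.

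In TRAJ2, TRAJ24, TRAJ50 and TRAJ53, 1 or 2 clonotypes held most of the reads of the segment, and their CDR3 sequences are shown for that reason. Capitals mark the stretch at the 3′ end that matches the germline J segment.
DKO 1, TRAV16D-DV11 with TRAJ2: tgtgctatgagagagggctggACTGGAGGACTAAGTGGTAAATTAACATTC
DKO 2, TRAV21/DV12 with TRAJ50: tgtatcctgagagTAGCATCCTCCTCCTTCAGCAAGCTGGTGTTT
DKO 2, TRAV10D with TRAJ53: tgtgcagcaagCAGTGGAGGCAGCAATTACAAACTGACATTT
DKO 2, TRAV12D-3 with TRAJ24: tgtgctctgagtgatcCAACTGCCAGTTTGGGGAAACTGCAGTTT
DKO 2, TRAV14N-2 with TRAJ24: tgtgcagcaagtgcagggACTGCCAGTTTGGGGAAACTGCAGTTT
The TRAJ2 clonotype had 241 reads, 2.77% of the library (95% Wilson interval 2.45% to 3.14%) and 76.5% of its TRAJ2 reads. The TRAJ50 clonotype had 246 reads (4.33%, 3.83% to 4.89%) and the TRAJ53 clonotype 196 (3.45%, 3.01% to 3.96%). The pair of TRAJ24 clonotypes had 181 and 150 reads and made up 48.8% and 40.4% of TRAJ24 reads. TRAJ22 in Tet2/3 DKO replicate 2 had a smaller excess, with 4.76% of clonotypes and 6.00% of reads, and its largest clonotype held 88 reads, 25.8% of TRAJ22 reads. In WT the largest clonotype of each library had 15, 16 and 32 reads. The same TRAJ2, TRAJ50 and TRAJ53 CDR3 sequences were each seen with 1 to 4 reads in 1 or 2 other libraries, WT libraries among them for TRAJ2 and TRAJ53, and both TRAJ24 sequences in no other library.

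**Figure D5:**
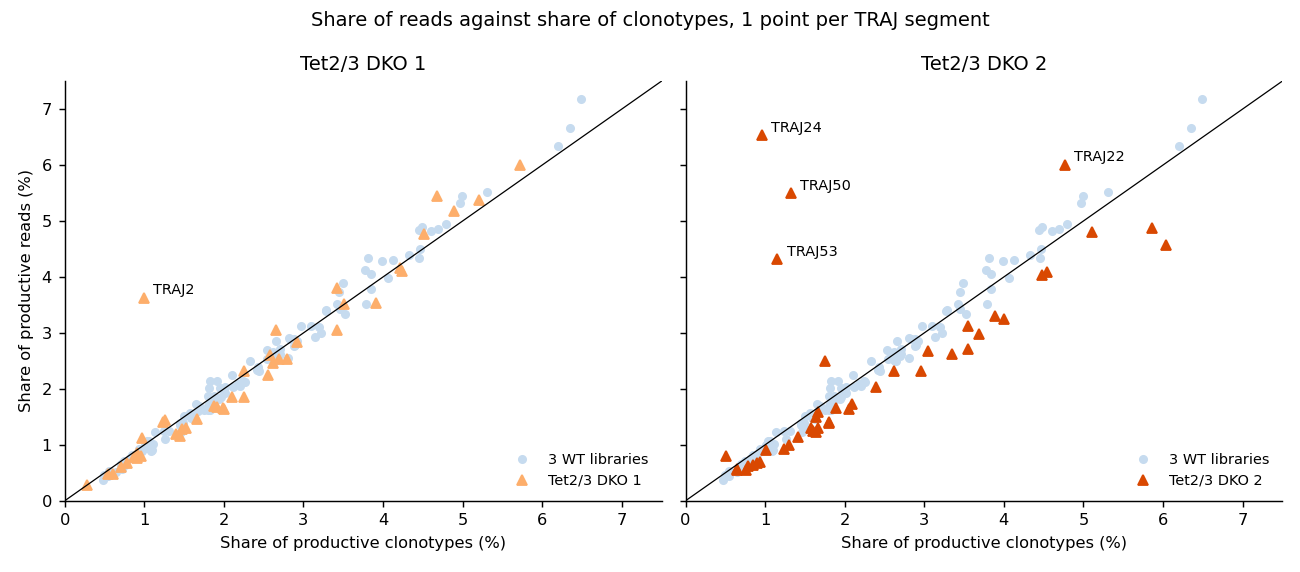
Share of productive reads (y axis, %) against share of productive clonotypes (x axis, %) of each TRAJ segment in Tet2/3 DKO replicate 1 (left) and replicate 2 (right), with the 3 WT libraries in light blue and the line of equal shares. Named segments exceed the line by more than 1 percentage point: TRAJ2 in replicate 1, and TRAJ24, TRAJ50, TRAJ53 and TRAJ22 in replicate 2.

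Likeness between usage profiles depended on the readout. Over the 43 segments, shares of clonotypes had Spearman correlations of 0.98 between WT libraries (0.978 to 0.984), 0.976 between the DKO libraries and 0.895 to 0.953 between a WT and a DKO library, as a description. By reads, the DKO libraries had a correlation of 0.646 with each other, below the 0.706 to 0.879 between a WT and a DKO library, while WT pairs were at 0.977 to 0.986. Libraries shared 4.99% to 9.78% of their CDR3 nucleotide sequences, so no library was a copy of another.

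Reads counted on the annotated Traj genes are a separate readout, in which a spliced receptor transcript and unspliced transcript of the unrearranged locus cannot be told apart. They were few, at most 138 counts for a gene in a library, and 26 of 60 Traj genes passed the filter on low counts. None was called (edgeR, adjusted p under 0.01, 0 of 26 against 3.92% of all 13525 genes tested, the smallest adjusted p being 0.0973), nor by DESeq2, and 3 had an unadjusted p under 0.05 with edgeR and 1 with DESeq2. Of the 26, 25 had a positive log2 fold change. Both DKO libraries lay above every WT library for 7 of them and below for 0. Traj20, a segment with no clonotype that the naming rule did not include, stood at 2.30 to 2.40 CPM in WT and at 4.00 and 4.08 CPM in Tet2/3 DKO. Per length, Traj8, also without a clonotype, had the highest mean level of the Traj genes, at 81.2 CPM per kb, so this readout did not follow segment use. The median log2 fold change of the 26 genes was 0.56. Left without Tet2/3 DKO replicate 1, it was -0.02 over the 29 genes then tested, and left without replicate 2 it was 0.93 over 34, so the genes compared are not identical. The summed Traj genes were at 41.1, 43.1 and 37.1 CPM in WT and at 74.3 and 41.01 CPM in Tet2/3 DKO, and the first DKO library also had the highest share of reads outside genes, 5.70% against 3.51% to 3.72% in the others. The part of such reads in the Traj counts was not tested.

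Among 44 genes of V(D)J recombination and of alpha locus control, 41 were tested, and 1 rose and 2 fell (edgeR, adjusted p under 0.01), beside 2.42% of all genes higher and 1.5% lower. The median log2 fold change of the 41 was -0.03, and that of all genes 0.01. Myb, a transcription factor needed for survival of DP cells and for alpha chain rearrangement, rose from 4.06, 3.92 and 3.32 CPM in WT to 10.4 and 11.02 CPM in Tet2/3 DKO (log2 fold change 1.51 ± 0.20, SE; edgeR adjusted p = 0.00204). Tcf7 and Lef1, which encode the TCF-1 and LEF-1 factors that bind the alpha enhancer region and sustain DP survival, fell. Tcf7 was at 1183, 1290 and 1384 CPM in WT and at 922 and 818 CPM in Tet2/3 DKO (log2 fold change -0.56 ± 0.10, SE; edgeR adjusted p = 0.00741). Lef1 was at 657, 648 and 673 CPM against 478 and 390 CPM (log2 fold change -0.60 ± 0.10, SE; edgeR adjusted p = 0.00611).

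The recombinase itself gave no comparison, because Rag1 had 0 counts in all 5 libraries and Rag2 had 1 count in WT replicate 2 alone. Dntt, which adds bases at the joins, was at 17.2, 23.6 and 19.2 CPM in WT and 13.6 and 14.2 CPM in Tet2/3 DKO (edgeR adjusted p = 0.106). Trac, the constant region of the chain, was at 2652, 2428 and 2692 CPM against 2761 and 2201 CPM, with overlapping genotypes (edgeR adjusted p = 0.795). All 3 calls were lost at this threshold when any WT library was left out. These levels are those of sorted SP cells, after rearrangement has ended.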

How the data were processed

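RNA of sorted CD4 SP thymocytes from 3 WT and 2 Tet2/3 DKO mice was made into libraries by SMART-seq v4 and Nextera XT. Per the labels and the study's methods, the authors used bcl2fastq 2.20.0, fastp 0.21.0 and STAR 2.7.5a (mm10, gene counts). The deposited gene tables hold raw counts, of which the unstranded column was used, and 20.8% to 23.7% of their reads lay in rows that name no gene. The deposited alpha clonotype tables hold a read count per clonotype and the fraction of all alpha reads, and the tool that called them is not given in the sources used here. V and J segments with near-identical copies can share reads, no row held several J segments, and strand was not used. Shallower libraries show fewer clonotypes, so shares rather than numbers were compared, also at an equal depth of 5681 productive reads per library. Productive clonotypes then still numbered 4498, 4519 and 4542 in WT and 4136 and 3548 in Tet2/3 DKO. Columns of no sample numbered 0. The beta chain tables were not used here.

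Segments were tested with edgeR 4.0.16 (quasi-likelihood, library size = productive clonotypes, at least 10 clonotypes over all libraries, Benjamini-Hochberg adjusted p under 0.05). Genes were tested with the same tool (TMM, filterByExpr, adjusted p under 0.01), the threshold of the study, whose tool DESeq2 (1.42.0 here) was an alternative. Standard errors were derived from each log2 fold change and its F statistic. Single values were compared with exact two-sided permutation tests over libraries. Symbols came from GENCODE M21 for 55227 of 55487 gene IDs. The fits were tested on simulated data.

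Named segments were the 6 most used in WT, the calls with the smallest p (at most 12), the 4 largest gains and losses, both ends of the array, TRAJ18, TRAJ33 and, per library, the one with the largest excess of reads. Named genes were the listed genes called and Rag1, Rag2, Dntt and Trac. Segments, windows and lists were chosen with earlier results of these data known. The labels do not tie the replicate numbers to litters or days, so the main tests took the libraries as unpaired. Exact permutation p-values cannot go below 0.1 with these libraries. The edgeR p-values for segments rest on a moderated variance that went as low as 0.473 times the counting variance. Alternatives covered the rows used, depth, weighting, windows, tools, thresholds and each library left out.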

Additional observations from a re-analysis of the deposited data

How the results depend on the processing

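The mean TRAJ number of clonotypes and the 3 window shares kept their direction under every alternative run. Leaving out 1 library at a time gave differences of -2.83 to -2.12 for the mean TRAJ number of clonotypes, -3.41 to -0.49 for that of reads, -4.31 to -3.84 points for the V-proximal, -3.55 to -1.26 for the central and 5.13 to 7.62 for the distal window. None of these tests could pass 0.05. The 16 segments called by edgeR became 2 among clonotypes with at least 2 reads, 3 when weighted by reads, 0 with DESeq2 and 6 at a threshold of 0.01, and 7 to 14 with 1 library left out. They became 23, all 16 among them, when all rows were used. The 3 listed genes called became 7 with DESeq2, 5 without the filter on low counts, 7 at a threshold of 0.05, and 0 to 7 with 1 library left out. The cause was not tested, apart from the fewer clonotypes or libraries that some settings leave. For the 12 called segments that are named, 156 alternative values stayed past the threshold, 48 did not, and none turned.

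The reversals concerned log2 fold changes that were not called. TRAJ23 became -0.0125 at 2 reads or more and -0.0775 by reads, TRAJ27 -0.0746 by reads and -0.0223 with the replicate block, and TRAJ58 0.0367 at 2 reads or more and 0.105 by reads. TRAJ24 became 0.0245 over all rows, 0.39 at 2 reads or more, 0.00056 at equal depth and 1.88 by reads. With 1 library left out, TRAJ27 ranged from -0.0248 (without WT replicate 3) to 0.064, TRAJ2 from -0.0467 (without Tet2/3 DKO replicate 1) to 0.334, and Trac from -0.238 to 0.077 (without Tet2/3 DKO replicate 2).

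The replicate block over the 2 shared numbers gave -2.53 for the mean TRAJ number of clonotypes, -1.99 for reads, -4.19, -2.38 and 6.37 points for the windows, 21 segments called, 0 Traj genes and 0 listed genes called. Same-numbered libraries share only a number, and their deviations over 43 segments correlated at 0.18 and 0.01. Raising the variance to the counting variance, the V mix, the non-productive rows, and leaving out a library for these and the V groups were chosen after seeing the data. Depth limited the segments with few clonotypes, as few as 16 in a library.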

Other observations

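The TRDJ segments in the alpha tables, which join within the delta locus nested in the alpha locus, made up 29, 18 and 38 productive clonotypes in WT (0.424%, 0.311% and 0.547%) and 33 and 20 in Tet2/3 DKO (0.584% and 0.564%). Both DKO libraries lay above every WT library, but Tet2/3 DKO replicate 2, with 20 clonotypes, only narrowly (0.564% beside 0.547% in WT replicate 3). The difference was not tested. In the gene counts of the same libraries, Tcrg-C1 was at 4.22, 4.68 and 2.73 CPM in WT and at 59.2 and 103 CPM in Tet2/3 DKO, while Trdc overlapped between genotypes, at 11.7, 11.8 and 16.7 against 18.3 and 15.3 CPM. The part of other cells in these values was not tested.

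By window, the CDR3 was longest with V-proximal J segments, at 41.6, 41.6 and 41.7 bases on average in WT and 41.5 and 41.9 in Tet2/3 DKO, and shortest with central ones, at 40.1, 39.98 and 40.01 against 39.8 and 39.99 bases. The genotypes overlapped in both windows (exact permutation test, two-sided, p = 0.7 in each after adjustment over 4 comparisons).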
